A study of Mus musculus with 7 samples.

Results

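The 10 receptor tyrosine kinase genes were followed across the 7 mouse tumors of a study of Wdr11 in Group 3 medulloblastoma (G3 MB), the form of this cerebellar tumor that is driven by high MYC. The 10 members were chosen by name as receptors that bind epidermal, platelet-derived, stem cell, insulin-like, fibroblast and hepatocyte growth factors, and are Egfr, Erbb2, Erbb4, Pdgfra, Kit, Igf1r, Insr, Fgfr1, Fgfr2 and Met. The rule names genes and sets no level or fold change. They are 10 of the 34592 genes in the deposited counts, and 10 of the 17389 genes with enough reads to be tested. RNA from 4 tumors labelled as overexpressing WDR11 (WDR11OE) and from 3 control tumors was sequenced.

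All 7 tumors were described as grown from Trp53-/-; Cdkn2c-/- cerebellar granule neuron progenitors that had received Myc by an MSCV retrovirus with GFP, by way of 1 tumorsphere line kept in medium with EGF and FGF. The line was then transduced with a lentivirus carrying human WDR11 behind the EF1 promoter with copGFP, or with the same vector lacking WDR11. The treatment label of the control tumors reads none, while the protocol and the study's methods name the empty vector. Transduced cells were placed in the cortex of CD1-nu/nu mice, and pieces of tumor were taken when the hosts were moribund. The RNA therefore also held RNA of host brain and vessels. The study's methods give postnatal day 7 as the age of the progenitor donors, and an age for the hosts of the first transplants. No age of the hosts of the transduced cells was given in the sources used here.

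A receptor tyrosine kinase spans the cell membrane, binds a growth factor outside the cell and, once paired with another receptor, phosphorylates tyrosines on its own tail. Adaptor proteins such as Grb2, Gab1, Frs2 and the Irs proteins dock there and hand the signal to the RAS-MAPK and PI3K-AKT cascades, which drive division, growth and survival. Sprouty and Spred proteins, Cbl ubiquitin ligases and phosphatases switch the signal off. In the cerebellum, fibroblast and insulin-like growth factors act on granule neuron progenitors, and Pdgfra marks precursors of oligodendrocytes as well as fibroblasts around vessels.

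Total counts lay between 32116095 and 87141305 reads per tumor, and the members had between 100 and 12816 reads each in a tumor, so that all were far above the floor of 3 counts (0.0329 to 0.0924 CPM, where CPM is the count scaled to library depth, here with TMM). The transgene row of the counts (human WDR11) did not follow the labels. It stood at 2.03, 2.19 and 3.13 CPM in the control tumors and at 4.38, 2.11, 3.05 and 0.624 CPM in those labelled WDR11OE, of which 1 lay above the highest control (log2 fold change 0.05, SE 0.576, adjusted p = 0.961 by the quasi-likelihood test of edgeR, adjusted by Benjamini-Hochberg). These reads made up between 0.898% and 6.15% of the human and mouse WDR11 reads. The study itself reports raised WDR11 transcript by qRT-PCR in tumors given WDR11, and WDR11 protein by immunofluorescence in tumorspheres from such tumors. It does not say whether the sequenced tumors were among those measured. Every direction below therefore compares tumors labelled WDR11OE with control tumors. Library names fall into 1 run of numbers for the control tumors and another for the tumors labelled WDR11OE, so that library series and group cannot be told apart. Atoh1, a marker of granule neuron progenitors, was at 0 counts in all 7 tumors. It is 1 of 7 granule neuron lineage markers listed. Barhl1, another of them, was at 0 CPM in the control tumors and averaged 0.00592 CPM in those labelled WDR11OE. The other 5 had enough reads to be tested. The list summed to 31.9 to 39.0 CPM in the control tumors and to 24.9 to 60.1 CPM in those labelled WDR11OE. Pax6 made up 58.6% of the sum in the control tumors. Replicates were numbered in the order of the sample records.

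The members lie on 6 mouse chromosomes (build NCBIM37, GENCODE vM1 models). Pdgfra (chr5:75548316-75594229, + strand) and Kit (chr5:75970941-76052747, + strand), which belong to the same class of receptors, are 377 kb apart, and Kdr, a VEGF receptor, follows Kit after 276 kb. Fgfr2 (chr7:137305965-140315033, - strand, the widest span over all its transcripts) lies 527 kb from mouse Wdr11, and 314 exon bases are shared with Ctbp2 on the same strand. Fgfr1 (chr8:26624126-26686186, + strand) shares 125 exon bases with Gm16159 on the other strand, and Erbb2 (chr11:98273784-98299030, + strand) shares 9 with 1810046J19Rik. Without the strand setting of the counting, reads in those bases cannot be assigned with certainty. Egfr lies at chr11:16652206-16818161 (+ strand), Erbb4 at chr1:68078760-69154633 (- strand), Igf1r at chr7:75097713-75371484 (+ strand), Insr at chr8:3150922-3279617 (- strand) and Met at chr6:17413800-17523980 (+ strand). No other member shares exon bases with a neighbour.

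Promoters of the members that fell in the tumors labelled WDR11OE are shown because these genes fell in the same comparison and can be set side by side. RefSeq sequences of 300 bases (250 before and 50 after the start, build GRCm38.p6) were found for 8 of the 10 members, not including Insr and Fgfr1, and the 4 of them that fell are printed 5′ to 3′ on the gene's strand. Capitals mark matches, on either strand, to 5 motifs that do not overlap one another here: the GC box (GGGCGG), the CCAAT box (CCAAT), the TATA box (TATAAA), the E box bound by MYC (CACGTG) and the TCF/LEF motif (CTTTGAA).
Erbb2 (chr11:98412234-98412533, + strand): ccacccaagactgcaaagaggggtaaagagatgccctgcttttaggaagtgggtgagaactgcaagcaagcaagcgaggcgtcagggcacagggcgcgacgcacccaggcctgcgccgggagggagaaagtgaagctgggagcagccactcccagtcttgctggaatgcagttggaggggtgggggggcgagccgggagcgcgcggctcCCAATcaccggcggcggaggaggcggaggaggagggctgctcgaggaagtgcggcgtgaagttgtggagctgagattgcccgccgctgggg
Pdgfra (chr5:75152001-75152300, + strand): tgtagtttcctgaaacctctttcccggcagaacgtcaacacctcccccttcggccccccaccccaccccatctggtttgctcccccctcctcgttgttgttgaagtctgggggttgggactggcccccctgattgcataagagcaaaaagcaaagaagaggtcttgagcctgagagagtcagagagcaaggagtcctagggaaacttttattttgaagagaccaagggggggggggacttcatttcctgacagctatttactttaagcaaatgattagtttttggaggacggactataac
Kit (chr5:75574737-75575036, + strand): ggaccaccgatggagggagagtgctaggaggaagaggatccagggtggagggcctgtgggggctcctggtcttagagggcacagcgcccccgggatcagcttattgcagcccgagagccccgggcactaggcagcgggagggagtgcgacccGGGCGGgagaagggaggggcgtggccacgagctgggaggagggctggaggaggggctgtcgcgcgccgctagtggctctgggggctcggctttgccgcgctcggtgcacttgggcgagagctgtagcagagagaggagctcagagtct
Fgfr2 (chr7:130266759-130267058, - strand): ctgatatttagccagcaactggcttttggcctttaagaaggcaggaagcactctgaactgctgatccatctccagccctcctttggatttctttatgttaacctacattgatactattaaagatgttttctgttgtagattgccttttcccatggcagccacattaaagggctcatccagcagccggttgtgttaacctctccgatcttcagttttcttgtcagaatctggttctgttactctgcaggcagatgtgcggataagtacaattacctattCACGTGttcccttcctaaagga
Among all 27025 promoters of this length, 35.9% held a GC box, 37.9% a CCAAT box, 14.2% a TATA box, 7.24% the E box and 5.27% the TCF/LEF motif. The 4 printed promoters shared none of the 5: Erbb2 had 1 CCAAT box, Kit 1 GC box, Fgfr2 1 E box and Pdgfra no match. Their base composition was as varied, with 66.0% G and C in Erbb2, 69.0% in Kit, 51.0% in Pdgfra and 43.7% in Fgfr2, around a median of 52.7% over all promoters. Fgfr2 had 4 CpG and Pdgfra 5, against a median of 7, while Erbb2 had 21 and Kit 20. Of the unprinted members, Met (3) and Igf1r (2) held the most GC boxes and Igf1r the most CpG (48). A match in these windows describes letters and not binding.

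The members differed widely in level. In CPM per kb of exon, averaged over the 7 tumors, Fgfr2 stood at 22.7 ± 8.42 (SD, n = 7), Pdgfra at 21.8 ± 6.20 and Igf1r at 16.6 ± 3.96, and these led the order. Insr (9.11 ± 1.07), Fgfr1 (7.70 ± 4.22) and Erbb2 (4.35 ± 1.18) were in the middle. Egfr (2.14 ± 0.538), Kit (1.36 ± 0.534), Erbb4 (0.828 ± 0.797) and Met (0.610 ± 0.169) were lowest. Fgfr2 was thus at percentile 86.1 of all tested genes per length and Met at percentile 17.6. Only between Igf1r and Insr did the ranges over the 7 tumors not overlap. Each of the other 8 pairs of neighbours in the order overlapped, although Pdgfra exceeded Igf1r, and Erbb2 exceeded Egfr, in 7 of 7 tumors. Fgfr2 exceeded Pdgfra in 4 of 7. Insr and Fgfr1 changed places when the longest transcript served as the length.

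**Figure D1:**
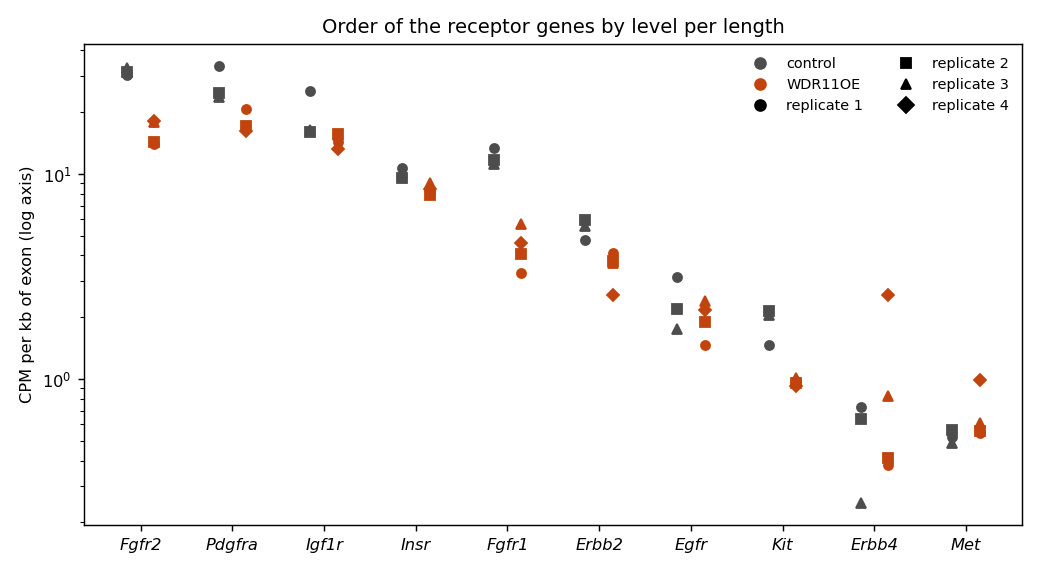
CPM per kb of exon (log axis) of the 10 receptor genes in each tumor, ordered by the mean over 7 tumors, with control tumors in gray, tumors labelled WDR11OE in orange and replicates by symbol. Levels run from 22.7 for Fgfr2 to 0.610 for Met, and Fgfr1 and Fgfr2 show a gap between the groups, while Erbb4 is spread most.

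In the tumors labelled WDR11OE, 6 of the 10 receptors fell, none rose and 4 did not pass the test (adjusted p under 0.05 in the same test, adjusted over 17389 genes). Among all genes tested, 15.8% fell and 18.1% rose. Those that fell were Fgfr1, Fgfr2, Kit, Pdgfra, Erbb2 and Insr. Those that did not pass were Egfr, Erbb4, Igf1r and Met. The median log2 fold change was -0.51 over the members and 0.08 over all genes tested, and 8 of 10 members were below 0, against 44.2% of all genes. The groups did not overlap for 7 members, all with the lower values in the tumors labelled WDR11OE, against 19.1% of all genes, and no member lay wholly higher there, against 23.5%. At 2-fold or more, only Fgfr1 was called lower, against 3.95% of all genes, and none higher, against 3.53%. Without WDR11OE replicate 2, the count of members that fell was 3. In bulk tumor RNA, fewer cells of a type and less RNA per cell cannot be told apart.

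**Figure D2:**
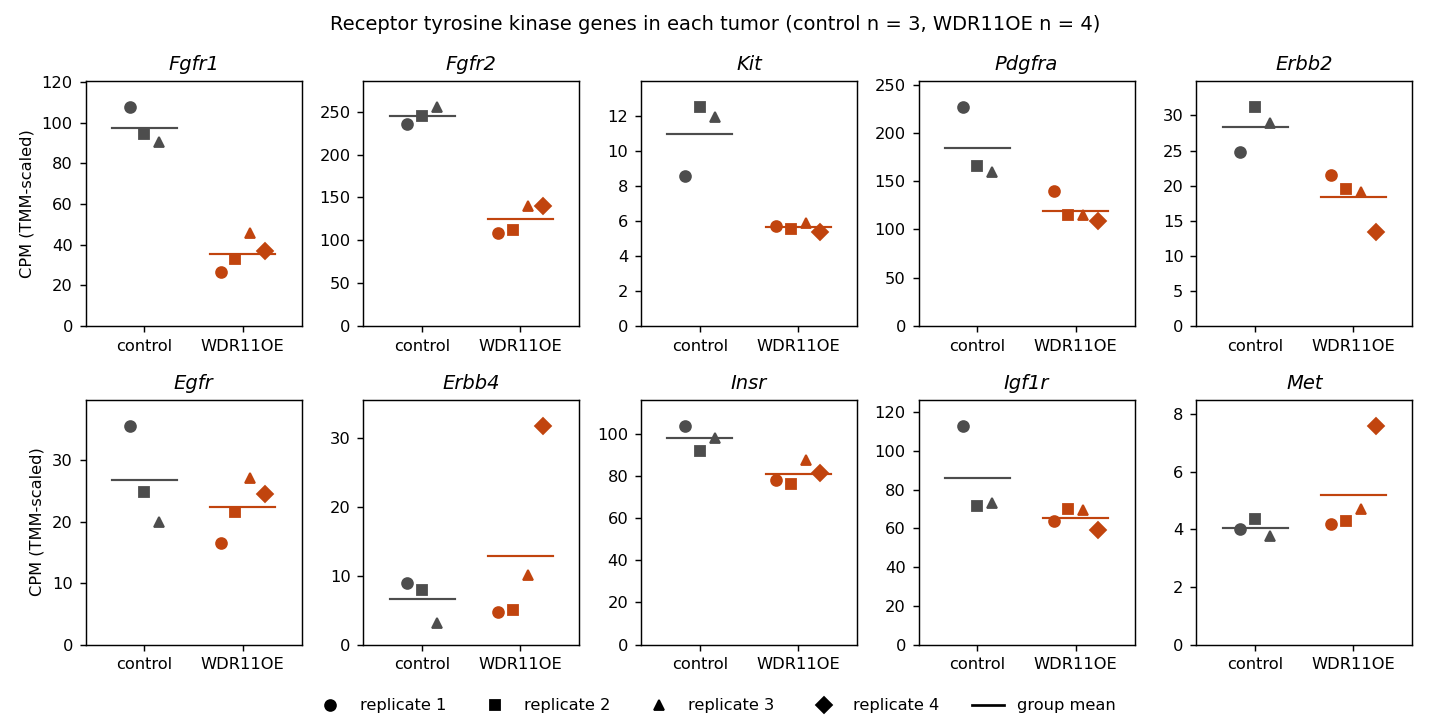
TMM-scaled CPM of each receptor gene in each tumor (linear axes from 0, own scale in each panel), with control tumors in gray (n = 3), tumors labelled WDR11OE in orange (n = 4), replicates by symbol and the group mean as a line. Fgfr1 and Fgfr2 separate the groups most clearly, and Erbb4 and Met are highest in WDR11OE replicate 4 alone.

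Fgfr1 had the largest fold change of the members, here and in each of the 17 alternatives of processing, while those of Fgfr2 and Kit were close to each other and changed order between alternatives. Fgfr1, a receptor of progenitor and stromal cells, was counted at 108, 94.5 and 90.3 CPM in the control tumors and at 26.4, 32.9, 46.0 and 37.0 CPM in the tumors labelled WDR11OE. Every control tumor lay above every tumor labelled WDR11OE, and the control tumors averaged 97.5 ± 9.03 CPM (SD, n = 3). The other group averaged 35.6 ± 8.22 CPM (SD, n = 4). The log2 fold change was -1.46 (SE 0.177, 95% confidence interval -1.87 to -1.04), with an adjusted p of 0.00146 by edgeR and an exact two-sided permutation p of 0.0286, which is the smallest that the 35 splits of 7 tumors allow.

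Fgfr2, a receptor with splice forms for epithelial and mesenchymal FGFs, stood at 236, 245 and 255 CPM in the control tumors and at 109, 112, 140 and 140 CPM in those labelled WDR11OE. Its groups were also fully apart, and its control tumors were the most even of the 10 members, with the highest 1.08 times the lowest. The log2 fold change was -0.97 (SE 0.113, interval -1.24 to -0.71, adjusted p = 0.00131 by edgeR). Fgfr1 and Fgfr2 kept an adjusted p under 0.05 in all 17 alternatives. Of the other FGF receptors, neither of those tested passed. Fgfr3 was at 8.09 ± 2.70 CPM (SD, n = 3) in the control tumors and 8.35 ± 4.29 CPM (SD, n = 4) in the others, a log2 fold change of 0.04 with an interval of -1.002 to 1.09 (adjusted p = 0.952 by edgeR). Fgfrl1, a receptor without a kinase, was at -0.21 (interval -0.46 to 0.04, adjusted p = 0.184 by edgeR), and Fgfr4 had too few reads to be tested. These 3 were named after their values were seen. Fgfr1 had a wider fold change than Fgfr2, and the log2 ratio of Fgfr1 to Fgfr2 was -1.34 ± 0.185 in the control tumors and -1.83 ± 0.191 in the others. That difference of -0.50 did not pass the exact permutation test (p = 0.0571, adjusted p = 0.229 over 4 ratios). Mouse Wdr11, the neighbour of Fgfr2, was 58.9, 58.3 and 59.3 CPM in the control tumors and 66.8, 61.0, 65.7 and 68.9 CPM in the others (log2 fold change 0.16, adjusted p = 0.0910 by edgeR).

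Kit and Pdgfra both fell as well. Kit, the receptor of stem cell factor, was at 8.53, 12.5 and 11.9 CPM in the control tumors and at 5.71, 5.55, 5.89 and 5.38 CPM in the tumors labelled WDR11OE. The latter 4 values were the most even of all members, while control replicate 1 stood below the other controls. The log2 fold change of Kit was -0.96 (SE 0.165, interval -1.35 to -0.58, adjusted p = 0.00455 by edgeR), and it kept its call in all 17 alternatives. The mast cell list, which holds genes of a cell type rich in Kit, summed to at most 0.0556 CPM in any tumor, none of its 5 genes could be tested, and Tpsb2 was at 0 in all 7 tumors.

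Pdgfra, a receptor of PDGFs such as PDGF-A and PDGF-C, was measured at 227, 166 and 159 CPM in the control tumors and at 139, 115, 115 and 108 CPM in the others. The highest tumor labelled WDR11OE was below the lowest control. The log2 fold change was -0.62 (SE 0.145, interval -0.97 to -0.28, adjusted p = 0.0152 by edgeR), and the call was lost once the trend with gene length was removed (-0.45, adjusted p = 0.148) and without WDR11OE replicate 2 (-0.65, adjusted p = 0.0506). The 6 oligodendrocyte precursor markers summed to 589 to 671 CPM in the control tumors and to 285 to 491 CPM in the tumors labelled WDR11OE, with Cspg4 as the 1 of 6 that fell. The 8 pericyte and fibroblast markers summed to 3306 to 4068 CPM and to 1303 to 1688 CPM, with Col3a1 as the 1 of 8 that fell. The range of neither sum overlapped between the groups, but each sum rested mostly on 1 gene. Cspg4 made up 83.4% of the precursor sum in the control tumors, and the other 5 markers summed to 57.0 to 169 CPM there and to 68.1 to 154 CPM in the tumors labelled WDR11OE, with 2 of 5 above 0 in log2 fold change. Col3a1 made up 81.1% of the pericyte and fibroblast sum in the control tumors, and the other 7 summed to 349.6 to 1345 CPM there and to 219 to 454 CPM in the others, with 3 of 7 above 0. Apart from those genes, the sums thus overlapped, and their part in the change of Pdgfra was not tested. Cspg4 and Col3a1 were singled out after their values were seen. Kdr, the next receptor along the chromosome, was at 29.7 ± 6.56 CPM (SD, n = 3) and 22.4 ± 1.95 CPM (SD, n = 4) and did not pass (log2 fold change -0.40, adjusted p = 0.0906 by edgeR).

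Of the 3 ERBB receptors among the members, Erbb2 fell, and Egfr and Erbb4 did not pass the test. Erbb2, the member of the family without a ligand of its own, was at 24.8, 31.2 and 28.9 CPM in the control tumors and at 21.5, 19.5, 19.1 and 13.4 CPM in the tumors labelled WDR11OE. The groups were apart, but control replicate 1 and WDR11OE replicate 1 lay close. Its log2 fold change was -0.62 (SE 0.170, interval -1.02 to -0.22, adjusted p = 0.0273 by edgeR). Erbb2 has the highest exon GC content of the members (57.4%, against a median of 49.8% over tested genes), and with the GC trend removed its value was -0.34 (adjusted p = 0.316). It also lost the call with the length trend removed (-0.51, adjusted p = 0.170) and without control replicate 2 (-0.55, adjusted p = 0.0981), control replicate 3 (-0.61, 0.0785), WDR11OE replicate 2 (-0.69, 0.0707) or WDR11OE replicate 3 (-0.64, 0.0566). In those last 4 fits the fold change stayed between -0.55 and -0.69.

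Egfr, the receptor of EGF, TGF-alpha and HB-EGF, was at 35.6, 24.8 and 19.9 CPM in the control tumors and at 16.5, 21.5, 27.1 and 24.4 CPM in the tumors labelled WDR11OE. The groups overlapped, and the log2 fold change of -0.25 had an interval of -0.80 to 0.29 (adjusted p = 0.453 by edgeR). Without control replicate 1 it was 0.00.

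Erbb4, a neuregulin receptor that is well known in interneurons, was at 8.98, 7.87 and 3.06 CPM in the control tumors and at 4.69, 5.07, 10.2 and 31.8 CPM in the tumors labelled WDR11OE. WDR11OE replicate 4 stood far above the other 6 tumors, and the highest of its group was 6.78 times the lowest. The log2 fold change was 0.96 (SE 0.752, interval -0.80 to 2.73, adjusted p = 0.373 by edgeR), and -0.01 without that tumor. The 8 interneuron markers summed to 27.4, 51.7 and 10.6 CPM in the control tumors. In the others they summed to 9.80, 7.80, 95.02 and 280 CPM. Only 1 of 8, Pvalb, passed the test as higher (0.776 ± 0.941 CPM, SD, n = 3, to 5.77 ± 2.73 CPM, SD, n = 4, adjusted p = 0.0365 by edgeR). Its groups were fully apart, so it was also higher in WDR11OE replicates 1 and 2, whose interneuron sums were the lowest. Skeletal muscle markers rose in all tumors labelled WDR11OE as well, and the cell type behind the Pvalb RNA was not tested. Sst went the other way with its groups fully apart, but did not pass (log2 fold change -2.42, adjusted p = 0.121 by edgeR). Both were singled out after their values were seen. Gad1 made up 46.5% of the sum in the control tumors. The other 7 summed to 7.08 to 24.5 CPM there and to 6.86 to 71.1 CPM in the tumors labelled WDR11OE, with 4 of 7 above 0 in log2 fold change. WDR11OE replicates 4 and 3 had both the most Erbb4 and the most interneuron marker RNA. Replicate 4 also had the highest sums of neuron (386 CPM), astrocyte (1065 CPM) and granule neuron lineage markers (60.1 CPM). The part of any of these cells in the Erbb4 values was not tested.

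**Figure D3:**
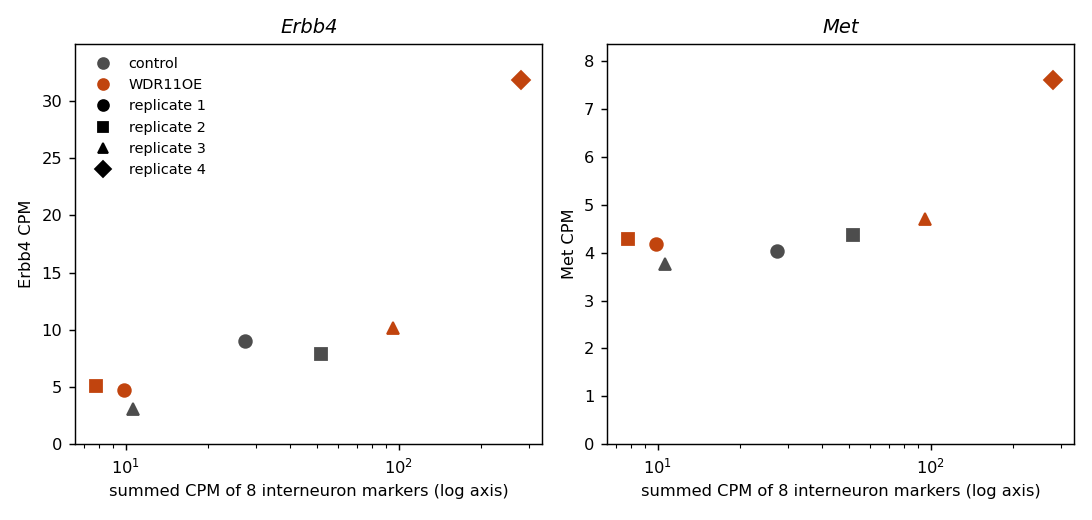
CPM of Erbb4 (left) and of Met (right) against the summed CPM of 8 interneuron markers (log axis) in the 7 tumors, with control tumors in gray, tumors labelled WDR11OE in orange and replicates by symbol. WDR11OE replicate 4 has the highest value on every axis (31.8 CPM of Erbb4, 7.60 CPM of Met and 280 CPM of interneuron markers).

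Insr, the receptor of insulin, fell by a small amount, and Igf1r, that of the insulin-like growth factors, did not pass the test. Insr was at 104, 91.8 and 97.9 CPM in the control tumors and at 78.0, 76.3, 87.5 and 81.2 CPM in the tumors labelled WDR11OE. The groups were apart by a small margin, between 87.5 and 91.8 CPM. Its log2 fold change of -0.28 had the smallest SE of the members (0.0734, interval -0.45 to -0.10, adjusted p = 0.0246 by edgeR). With the length trend removed it was -0.08 (adjusted p = 0.744). The call was also lost without control replicate 1 (-0.24, adjusted p = 0.0678), control replicate 3 (-0.28, 0.0578), WDR11OE replicate 1 (-0.30, 0.0662) or WDR11OE replicate 2 (-0.30, 0.0626).

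Igf1r was at 113, 71.3 and 73.3 CPM in the control tumors and at 63.8, 70.0, 69.4 and 59.2 CPM in the others. The groups did not overlap, but only control replicate 1 stood clear of the rest, and the adjusted p was 0.118 by edgeR (log2 fold change -0.39, SE 0.168, interval -0.78 to 0.00). The log2 ratio of Igf1r to Insr differed by -0.08 between the groups (exact permutation p = 0.686, adjusted p = 0.686 over 4 ratios).

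Met, the receptor of hepatocyte growth factor, was at 4.03, 4.36 and 3.77 CPM in the control tumors and at 4.19, 4.29, 4.71 and 7.60 CPM in the tumors labelled WDR11OE. Again WDR11OE replicate 4 was apart from the rest, and the other 6 tumors lay close. The log2 fold change was 0.36 (SE 0.251, interval -0.23 to 0.95, adjusted p = 0.318 by edgeR), and 0.12 without that tumor.

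**Figure D4:**
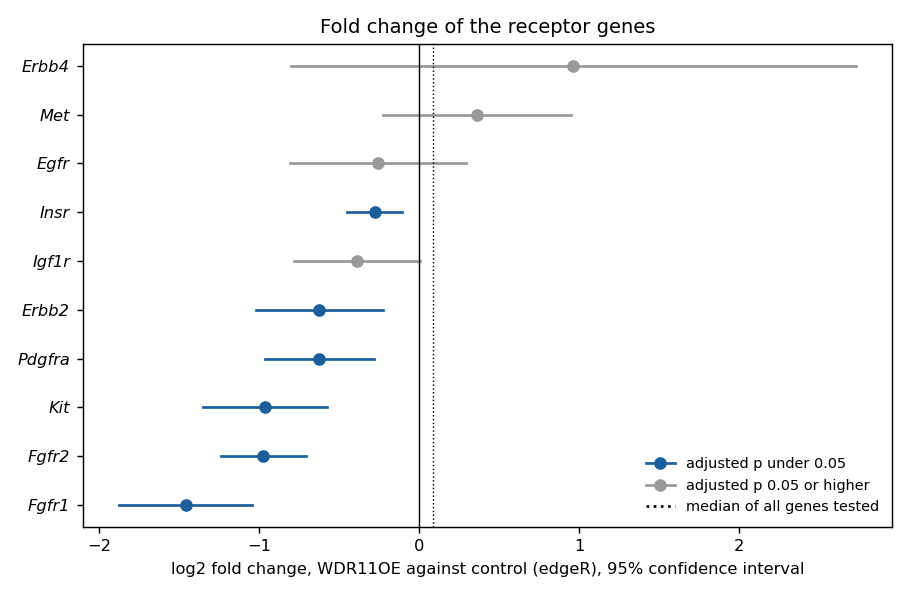
Log2 fold change of each receptor gene, tumors labelled WDR11OE against control tumors, with 95% confidence intervals by edgeR, in blue where the adjusted p was under 0.05 and in gray otherwise, with the median of all genes tested (0.08) as a dotted line. Fgfr1 (-1.46), Fgfr2 (-0.97) and Kit (-0.96) lie farthest below 0, and the interval of Erbb4 is the widest.

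Together the 10 members summed to 124, 105 and 104 CPM per kb in the control tumors and to 67.7, 66.6, 73.8 and 69.5 CPM per kb in the tumors labelled WDR11OE. Fgfr2 made up 24.5%, 30.0% and 31.4% of that sum in the control tumors and 20.6%, 21.5%, 24.3% and 25.9% in the others, and these shares overlapped. The share of Fgfr1 was 10.8% to 11.2% in the control tumors and 4.83% to 7.73% in the others, fully apart. Shares of Insr (8.67% to 9.71%, then 11.9% to 12.3%) and Met (0.421% to 0.540%, then 0.802% to 1.42%) were fully apart upward. These shares were picked after their values were seen, and a lower share of 1 member raises those of the others. Over the 7 tumors the log2 CPM of Fgfr1 and Fgfr2 correlated with r = 0.98, that of Kit and Fgfr2 with r = 0.92 and that of Erbb4 and Met with r = 0.91, while Erbb2 and Met had r = -0.83. These values describe 7 points that share the 2 groups and the libraries. The other 2 ratios tested, Kit to Pdgfra (difference -0.33, exact permutation p = 0.314) and Egfr to Erbb2 (0.40, exact permutation p = 0.400), did not pass (adjusted p = 0.533 for each).

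Longer exons and higher GC content went with lower fold changes over all genes (Spearman's rho -0.19 with length and -0.34 with GC content, a description over genes). All 10 members have more exon sequence (4.48 to 12.4 kb) than the median tested gene (3.30 kb), and 4 of 10 have more than the median GC content. With the length trend removed, 3 of 10 members were called lower (Kit, Fgfr1 and Fgfr2), and 5 of 10 with the GC trend removed. Among all genes tested, 11.8% were then called lower with the length trend removed and 10.5% with the GC trend removed.

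The sums of endothelial and of skeletal muscle markers differed between the groups as well, beside the lists above. Endothelial markers summed to 122 to 162 CPM in the control tumors and to 81.8 to 110 CPM in the tumors labelled WDR11OE. Of these, 2 of 8 fell, against 15.8% of all genes tested, and the others did not pass. Without Vwf, the most abundant, the other 7 summed to 79.2 to 108 CPM and to 65.3 to 73.0 CPM, with 3 of 7 above 0 in log2 fold change. All 7 skeletal muscle markers rose, from sums of 1.38 to 2.14 CPM to sums of 38.6 to 121 CPM. Neuron markers were highest in control replicate 1 (242 CPM) and WDR11OE replicate 4 (386 CPM), and without these 2 tumors Kit, Fgfr1, Fgfr2, Pdgfra and Erbb2 kept an adjusted p under 0.05 while Insr did not (0.0604). That setting was chosen after seeing the data. The part of endothelial and muscle RNA in the members' changes was not tested.

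Among the ligands, 5 of 27 tested genes fell, none rose and 22 did not pass, with a median log2 fold change of -0.09. The 18.5% that fell was near the 15.8% of all genes tested. The list took FGF genes by name. It thus also held Fgf11, Fgf12, Fgf13 and Fgf14, which are not usually counted as ligands of these receptors and did not pass. Igf2, a growth factor that binds Igf1r and one form of Insr, was at 2332, 1562 and 1327 CPM in the control tumors and at 501, 709, 872 and 486 CPM in the tumors labelled WDR11OE. Its groups were apart (log2 fold change -1.44, SE 0.274, adjusted p = 0.00687 by edgeR). Pdgfc, a ligand of Pdgfra, fell, averaging 32.4 ± 14.1 CPM (SD, n = 3) in the control tumors and 11.5 ± 2.01 CPM (SD, n = 4) in the others, with a log2 fold change of -1.50 (adjusted p = 0.0104). Pdgfb fell by 0.53 and Fgf10, a ligand of the epithelial form of Fgfr2, by 0.48 on the log2 scale (adjusted p = 0.0291 and 0.0494 by edgeR). Fgf5 also fell (-1.72, adjusted p = 0.00309 by edgeR). It had an average log2 CPM of -0.04, below the limit set for named genes, and is named after its values were seen.

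The tested ligands of Kit, Egfr, Erbb4 and Met with an average log2 CPM above 0 did not pass. Kitl, stem cell factor, was 13.9 ± 2.53 CPM (SD, n = 3) in the control tumors and 14.2 ± 0.632 CPM (SD, n = 4) in the others, a log2 fold change of 0.04 with an interval of -0.29 to 0.36 (adjusted p = 0.873 by edgeR). Hbegf (-0.24), Tgfa (0.10), Egf (0.52) and Hgf (0.45) had adjusted p between 0.199 and 0.851. The Egfr ligands Areg, Ereg, Btc and Epgn had too few reads to be tested. Nrg2 (0.66, interval -1.02 to 2.34) and Nrg3 (-0.11, interval -3.23 to 3.00), neuregulins that bind Erbb4, had wide intervals and adjusted p of 0.527 and 0.960. Of the other ligands of the FGF and PDGF receptors, Fgf1 (0.30), Fgf7 (-0.09), Fgf9 (1.46) and Pdgfd (0.61) had adjusted p between 0.396 and 0.880 by edgeR. Igf1 (-0.36, adjusted p = 0.178) and Pdgfa (-0.27, adjusted p = 0.143) did not pass by edgeR either.

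Genes around the receptors were counted in 7 lists, together 186 tested genes, of which 60 fell, 11 rose and 115 did not pass. That is 38.2% passing, against 33.9% of all genes tested, and by direction 32.3% lower, against 15.8%, and 5.91% higher, against 18.1%. The median log2 fold change was -0.23. The count of 11 was not stable, at 3 with the GC trend removed and at 2 without WDR11OE replicate 1 or replicate 2. Adaptors, which dock on the receptors, had 14 of 27 lower (51.9%) and 1 higher (median -0.42). Irs1, the main substrate of Igf1r and Insr, was at 196, 233 and 243 CPM in the control tumors and at 109, 98.8, 127 and 100.03 CPM in the tumors labelled WDR11OE. Gab1, which carries signals of Met, Egfr and the FGF receptors, was at 190, 176 and 187 CPM and at 81.9, 90.0, 96.5 and 71.9 CPM. Both sets of groups were fully apart, and the log2 fold changes were -1.05 (SE 0.116, adjusted p = 0.00119) for Irs1 and -1.12 (SE 0.104, adjusted p = 0.00104) for Gab1 by edgeR. The adaptor that rose was Nck1 (0.24, adjusted p = 0.0403 by edgeR), and it was at -0.23 once the GC trend was removed (adjusted p = 0.254).

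The cascades below the receptors held calls in both directions. In the RAS-MAPK list 6 of 22 fell and 2 rose (27.3% and 9.09%, median -0.08), against 15.8% lower and 18.1% higher among all genes tested. Mapk3, the kinase ERK1, averaged 81.2 ± 11.8 CPM (SD, n = 3) in the control tumors and 48.9 ± 2.17 CPM (SD, n = 4) in the others and fell by 0.73 on the log2 scale (adjusted p = 0.00207 by edgeR), and Mras by 0.89 (adjusted p = 0.0342 by edgeR). Rasa1, a brake on RAS, rose by 0.46 (adjusted p = 0.00591 by edgeR), and Shoc2, a scaffold of the RAF kinases, by 0.19 (adjusted p = 0.0454 by edgeR), but the latter was at -0.17 with the GC trend removed (adjusted p = 0.316). In the PI3K-AKT list 11 of 29 fell and 5 rose (37.9% and 17.2%, median -0.23). Foxo1, a transcription factor that AKT holds out of the nucleus, fell by 1.17 and the kinase Gsk3b by 0.83 on the log2 scale (adjusted p = 0.00408 and 0.00345 by edgeR). Pik3r3, a regulatory subunit of PI3K, rose by 0.38 (adjusted p = 0.0244 by edgeR), and Rps6kb1, the S6 kinase, by 0.37 (adjusted p = 0.00716 by edgeR), which became -0.0689 with the GC trend removed (adjusted p = 0.731).

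Among negative regulators of the receptors 12 of 37 fell and 2 rose (32.4% and 5.41%, median -0.36), against 15.8% and 18.1% of all genes. Spred2, which restrains RAF, was at 30.7 ± 1.51 CPM (SD, n = 3) in the control tumors and at 11.4 ± 3.02 CPM (SD, n = 4) in the others, a log2 fold change of -1.43 (adjusted p = 0.00238 by edgeR). Igfbp5, a binding protein of insulin-like growth factors, fell by 1.24 (adjusted p = 0.00890 by edgeR). Those that rose were Socs3 (0.39, adjusted p = 0.0212) and Ptpn2 (0.34, adjusted p = 0.0206 by edgeR), a phosphatase of Insr and Egfr that was at -0.0643 with the GC trend removed (adjusted p = 0.810). Response genes, which growth factors switch on, had 6 of 18 lower and 1 higher (33.3% and 5.56%, median -0.34). Myc fell by 1.40 (914 ± 169 CPM, SD, n = 3, to 347 ± 75.5 CPM, SD, n = 4, adjusted p = 0.00227 by edgeR), but the retroviral copy and the native gene were counted as 1 gene. Phlda1 fell by 1.18 (adjusted p = 0.00714 by edgeR) and Ier3 rose by 0.86 (adjusted p = 0.0330 by edgeR). Of 26 tested receptors related to the members, 6 fell (23.1%) and none rose (median -0.23), led by Flt4 (-1.11, adjusted p = 0.0271), a VEGF receptor of lymph vessels, and Ror2 (-1.04, adjusted p = 0.0179 by edgeR), a receptor of Wnt5a.

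**Figure D5:**
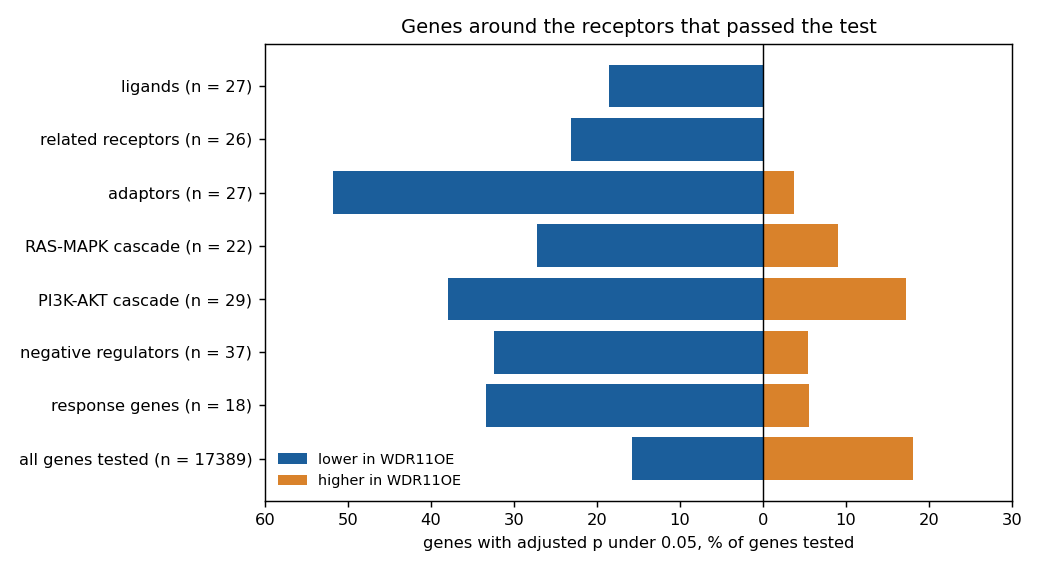
Share of tested genes (%) that were lower (blue, to the left) or higher (orange, to the right) in the tumors labelled WDR11OE at an adjusted p under 0.05, for 7 lists of genes around the receptors and for all 17389 genes tested. Adaptors had 14 of 27 genes lower, against 15.8% of all genes, and ligands and related receptors had none higher.

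The gene most like each member over the 7 tumors was found by Pearson's r of log2 CPM among 14814 genes. Fgfr2 was closest to Zfp462 (r = 0.999), Fgfr1 to Kdm6b (0.998), Insr to Reck (0.996), Kit to Prr3 (0.996), Erbb2 to Bag3 (0.996), Met to 9330162012Rik (0.995) and Erbb4 to Arap2 (0.995). Pdgfra was closest to Fgf10 (0.992), the FGF ligand described above, Igf1r to Tspan18 (0.986) and Egfr to Crispld2 (0.983). All 10 values were picked as the highest of 14814 over 7 tumors that share the groups and libraries, and they are given as a description.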

How the data were processed

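RNA of 4 tumors labelled WDR11OE and 3 control tumors was sequenced as described in the study's methods, which name total stranded RNA, whereas the labels name a TruSeq RNA kit. The authors mapped reads to NCBIM37 and counted them per gene with HTSeq against GENCODE models. The deposited values are these raw counts. The submitters' processing notes also name CASAVA 1.7, STAR and BWA. The strand setting of the counting was not given in the sources used here.

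From the counts, genes were kept by filterByExpr, scaled by TMM and tested two-sided with edgeR 4.0.16 (quasi-likelihood, group as the only term, Benjamini-Hochberg over 17389 genes) in R 4.3.3. SE is the size of the log2 fold change over the square root of F, and intervals are at 95%. Single values were compared by exact permutation over 35 splits. Limma 3.58.1 (voom, the study's method) and DESeq2 1.42.0, other scalings and filters, removal of GC or length trends (loess, span 0.5), an adjusted p under 0.01 and leaving out each tumor were alternatives. CPM are TMM-scaled, and log2 CPM have a prior count of 2. Of 34592 genes, 33837 (97.8%) matched GENCODE vM1, and 231 of these, Fgfr1 among them, join gene models of 1 symbol.

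The members and lists were chosen with earlier results of these data known. Named genes follow a rule: all members, their chromosomal neighbours, tested ligands of members above an average log2 CPM of 0 where named, from each list the 2 genes with the largest changes in each direction among those that passed, and the gene most like each member. Markers of the other cell types listed were the astrocyte (519 to 783 CPM summed in control tumors, 359 to 1065 CPM in tumors labelled WDR11OE), oligodendrocyte (143 to 367, 123 to 355), microglia and macrophage (125 to 217, 109 to 171), cortical excitatory neuron (62.5 to 312, 15.2 to 139) and granule neuron lineage (31.9 to 39.0, 24.9 to 60.1) lists, whose ranges overlapped between the groups, as did the neuron list (46.3 to 242, 19.4 to 386). In these 6 lists, 1 of 8 astrocyte genes was higher and 1 of 7 cortical excitatory neuron genes lower. Of 211 pathway genes listed, 209 were in the counts, and the others were not analysed here. No 2 libraries agreed within sampling noise. Nothing says which hosts were separate litters, so p-values measure the spread between these tumors. The titles of WDR11OE replicates 1 and 2 share a number whose meaning was not given, and these 2 libraries were the most alike of all pairs. Whether those 2 tumors are independent of each other cannot be told, while the tests treat them as independent. Reads carried no molecular identifiers, so floors cover counting error only.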

Additional observations from a re-analysis of the deposited data

How the results depend on the processing

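The count of 6 members lower was 6 under voom, DESeq2, the 3 other scalings and both other filters, 5 with the GC trend removed or with control replicate 1 and WDR11OE replicate 4 both left out, 3 with the length trend removed, 3 at an adjusted p under 0.01, and 3 to 6 when 1 tumor was left out (3 without WDR11OE replicate 2). No member was higher under any of these alternatives. The 60 pathway genes lower became 36 at an adjusted p under 0.01. The 11 pathway genes higher became 3 with no filter on low counts, 3 with the GC trend removed, 3 with the length trend removed, 3 at an adjusted p under 0.01, 6 with those 2 tumors left out, and 2 to 9 when 1 tumor was left out (2 without WDR11OE replicate 1 or 2, 4 without control replicate 2, 6 without control replicate 1 or WDR11OE replicate 3, and 7 without control replicate 3). The cause was not tested. Reversed values, all with the GC trend removed, were Nck1 -0.23, Shoc2 -0.17, Rps6kb1 -0.0689 and Ptpn2 -0.0643. Upper quartile scaling gave a median log2 fold change over all genes of 0.12, against 0.08 with TMM. Pdgfra stood above Fgfr2 in level without control replicate 2 or 3, and Met above Erbb4 without WDR11OE replicate 4. No paired analysis was possible because the labels give no replicate numbers shared between the groups. Leaving out the tumors with the most neuron RNA was chosen after seeing the data.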
